A study of Mus musculus with 12 samples.

Results

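Interferon-stimulated genes are genes whose transcripts rise when a cell receives an interferon. The set described here holds 41 of them, taken by name from a list chosen with earlier results of these data known. The list ran from antiviral effectors such as the Ifit genes to regulators such as Irf7 and Usp18. All 41 were found among the 29542 genes to which the deposited transcripts could be assigned, and all 41 were among the 14431 genes with enough reads to be tested. Their transcripts were measured by RNA sequencing in type 2 innate lymphoid cells (ILC2s), lymphocytes without a rearranged antigen receptor that release type 2 cytokines such as IL-5 and IL-13.

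The cells came from skin-draining lymph nodes of bone marrow chimeras on the C57BL6 strain. Recipients were CD45.1 congenic mice that had been irradiated with 950 cGy. Their new marrow was a mixture in equal parts from a Rag1-/- donor, marked by CD45.2, and a WT donor, marked by CD90.1, so cells of both donors developed in the same kind of host, and every host also received antibiotics in its drinking water. ILC2s were sorted 8 or 20 weeks later, after rmIL-33, a cytokine that expands these cells, had been given on each of 7 days at 30 ng in each cheek and 240 ng into the peritoneum, also in the WT groups. The 12 libraries formed 4 groups of 3: WT and Rag1 knockout cells at 8 weeks, and the same at 20 weeks. The later time is 20 weeks in the labels of the samples, which were followed, although the text on the design of the series has a different length. Neither the age of the mice nor any pooling of animals is given. Whether the libraries within a group are separate mice is not said, and the p-values cover only library-to-library spread, which may be technical. Dates of harvest or sequencing are not given, and time after transplant cannot be told apart from a batch that coincided with it.

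Type I interferons bind the receptor made of Ifnar1 and Ifnar2, whose kinases Jak1 and Tyk2 activate the complex ISGF3, to which Stat2 and Irf9 belong. ISGF3 binds the interferon-stimulated response element (ISRE) in front of most of the genes described here, whereas interferon gamma acts mainly through the gamma-activated site (GAS). The products block viral entry, translation and replication, sense foreign RNA, or feed back on the pathway itself. In ILC2s, interferons are known as restraints on type 2 cytokine release.

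The libraries held 11433625 to 32529806 estimated reads. The 12 listed markers of ILC2s ranged widely in level. Gata3 was at 554 to 1357 CPM (counts scaled to the size of the library) and Klrg1 at 1022 to 1770 CPM. The lowest of the list were Il13, at 7.09 to 36.3 CPM, and Areg, at 0.875 to 5.53 CPM. Thy1, which encodes CD90, was higher in the knockout-labelled cells by 2.63 log2 units averaged over both times (adjusted p = 0.000463, edgeR quasi-likelihood test), with 2.94 to 5.68 CPM in the 6 WT libraries and 16.8 to 37.8 CPM in the others. Rag1 went against the labels: it was at 0 estimated reads in all 6 WT libraries, and reached 14.5 and 12.2 reads in replicates 2 and 3 of the knockout group at 8 weeks, and 13.2, 18.4 and 10.8 reads at 20 weeks. Replicate 1 of the knockout group at 8 weeks was at 0 reads. The edgeR quasi-likelihood test called Rag1 in none of the genotype contrasts (adjusted p = 0.377 averaged over both times). The Rag1 reads cannot show which part of the gene they came from. The cells are therefore called knockout-labelled throughout. Of the 8-week libraries, WT replicate 2 and knockout-labelled replicate 3 stood apart from the rest, with 15.0% and 24.5% of reads in their 10 most abundant genes against 8.85% to 11.3% in the other 10 libraries. Results that rest on them are given with and without them. The 3 WT libraries of 20 weeks differed from the other 9 in transcripts of the Y chromosome. Ddx3y was at 101 to 113 CPM in them and at 0.400 to 1.90 CPM in the others, Eif2s3y at 117 to 157 against 0.176 to 1.87 CPM, Uty at 48.1 to 52.8 against 1.34 to 2.61 CPM, and Kdm5d at 49.1 to 54.0 against 17.7 to 34.3 CPM. The labels give no sex, and these genes are named because of their values. Time in WT, genotype at 20 weeks and the interaction therefore cannot be told apart from this Y-linked difference between the donor cells, and averages over genotypes or times include it. Time in knockout-labelled cells and genotype at 8 weeks compare libraries that are all low in these transcripts.

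The ISRE core, spelled GAAA, any 2 bases, GAAA and read on both strands, was looked for in the RefSeq promoter windows (GRCm38.p6, 250 bases before to 50 bases after the annotated start) of the 33 members that had an entry. It was present in 18 of 33 (54.5%), against 1079 of all 27025 genes with a promoter window (3.99%). The GAS core, TTCNNNGAA, was present in 7 of 33 members (21.2%) and in 9.55% of all genes with a window. The 5 upstream stretches below are shown because they carry the contrast to which the expression values return: Ifit3, Isg15 and Rsad2 fell between 8 and 20 weeks, Gbp2 and Irgm1 were not called, and all have the element. Capitals mark the ISRE cores, each sequence is on the strand of its gene, and overlapping matches run together.
Ifit3 (chr19:34583279-34583528, plus strand): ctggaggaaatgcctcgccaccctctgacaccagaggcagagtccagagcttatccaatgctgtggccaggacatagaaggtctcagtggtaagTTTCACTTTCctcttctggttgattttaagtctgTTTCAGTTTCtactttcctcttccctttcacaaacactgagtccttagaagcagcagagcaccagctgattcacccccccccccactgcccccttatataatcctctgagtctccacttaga
Isg15 (chr4:156200819-156201068, minus strand): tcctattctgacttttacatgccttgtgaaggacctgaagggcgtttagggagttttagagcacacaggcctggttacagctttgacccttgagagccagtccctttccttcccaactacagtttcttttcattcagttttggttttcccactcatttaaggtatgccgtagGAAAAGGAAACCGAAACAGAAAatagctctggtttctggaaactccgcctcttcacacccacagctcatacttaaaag
Rsad2 (chr12:26456453-26456702, minus strand): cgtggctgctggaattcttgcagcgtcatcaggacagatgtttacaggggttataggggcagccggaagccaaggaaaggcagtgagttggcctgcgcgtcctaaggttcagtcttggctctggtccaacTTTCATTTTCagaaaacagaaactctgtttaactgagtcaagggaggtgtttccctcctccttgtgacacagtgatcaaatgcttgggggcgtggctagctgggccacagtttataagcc
Gbp2 (chr3:142620413-142620662, plus strand): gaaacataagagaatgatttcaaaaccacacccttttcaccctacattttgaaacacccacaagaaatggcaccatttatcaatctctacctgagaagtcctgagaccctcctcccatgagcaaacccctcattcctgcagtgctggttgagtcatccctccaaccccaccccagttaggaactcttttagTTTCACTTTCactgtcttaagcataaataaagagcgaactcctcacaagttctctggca
Irgm1 (chr11:48871421-48871670, minus strand): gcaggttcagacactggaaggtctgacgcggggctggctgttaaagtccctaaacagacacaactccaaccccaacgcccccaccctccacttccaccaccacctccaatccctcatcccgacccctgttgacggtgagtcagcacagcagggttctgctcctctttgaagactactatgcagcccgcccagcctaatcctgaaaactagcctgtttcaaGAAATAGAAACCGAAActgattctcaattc
Ifit3 had 2 separate matches, which began 156 and 122 bases before the start, whereas Isg15 had 3 overlapping ones that began 78, 72 and 66 bases before it. Rsad2 and Gbp2 had 1 match each, at 120 and 59 bases, and Irgm1 had 2 overlapping ones at 30 and 24 bases. The element was about as frequent in members that fell with time as in the others: it was in 5 of 10 called members with a promoter entry and in 13 of 23 members that were not called (56.5%). A match describes letters in this window and shows no binding.

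The summary of all 41 members in a library was the mean of their log2 CPM. At 8 weeks it was 5.76, 5.29 and 5.15 in WT and 5.80, 5.63 and 4.93 in knockout-labelled cells. At 20 weeks it was 4.41, 4.55 and 4.73 in WT and 4.51, 4.79 and 4.79 in knockout-labelled cells. Each of the 6 libraries of 8 weeks lay above each of the 6 of 20 weeks, while the genotypes overlapped at both times. The group means were 5.40 ± 0.32 (SD, n = 3) for WT and 5.45 ± 0.46 for knockout-labelled cells at 8 weeks, and 4.57 ± 0.16 and 4.70 ± 0.16 at 20 weeks. The score was thus lower at 20 weeks by 0.83 log2 units in WT (a difference of -0.83) and by 0.75 in knockout-labelled cells (-0.75), and the second value comes from libraries all low in Y-linked transcripts, while the genotypes differed by 0.05 at 8 weeks and 0.13 at 20 weeks. No test is given for the score. The headers record that quantification ran on 8 processor threads for 6 libraries and on 24 for the other 6. Among libraries of 8 threads the score was 4.93 to 5.80 at 8 weeks (n = 4) and 4.41 to 4.55 at 20 weeks (n = 2), and among those of 24 threads 5.15 to 5.63 (n = 2) and 4.51 to 4.79 (n = 4). Fewer cells with an active response and less RNA per cell cannot be told apart in bulk samples.

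**Figure D1:**
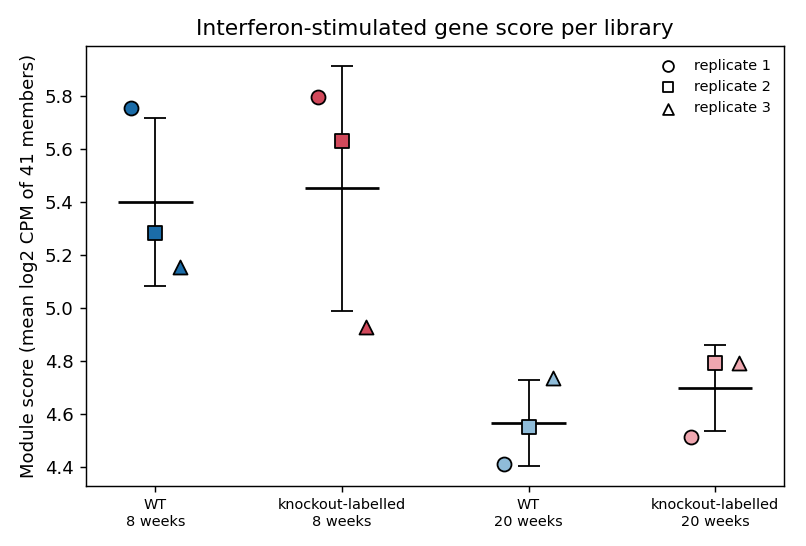
Mean log2 CPM of the 41 interferon-stimulated genes in each of 12 libraries, by group; horizontal bars are group means, error bars are 1 SD over 3 libraries and symbols give the replicate number. The 8-week libraries lie between 4.93 and 5.80 and the 20-week libraries between 4.41 and 4.79.

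The first comparison asked how the genes differed between 8 and 20 weeks after transplant. Averaged over genotypes, 15 of 41 members fell and 0 rose (edgeR quasi-likelihood test, Benjamini-Hochberg adjusted p under 0.05 over all tested genes), where 1.93% of all tested genes fell and 0.977% rose. The estimate was negative for 38 of 41, with a median log2 fold change of -0.54 against 0.02 for all tested genes, and 16 of 41 (39.0%) lay below -1 against 4.01% of all tested genes. At an unadjusted p under 0.05, 23 members were lower, as were 10.5% of all tested genes. The other tools run on the same counts called 20 members lower with DESeq2 (5.56% of all genes) and 16 with limma-voom (2.18%), in each case with all 15 among them. In 12 of 41 members all 6 libraries of 8 weeks were above all 6 of 20 weeks, which was so for 2.47% of all tested genes. These 12 were 11 of the 15 members that fell, and Irf9. Since the members were chosen with earlier results of these data known, these shares describe the set and are no independent support.

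**Figure D2:**
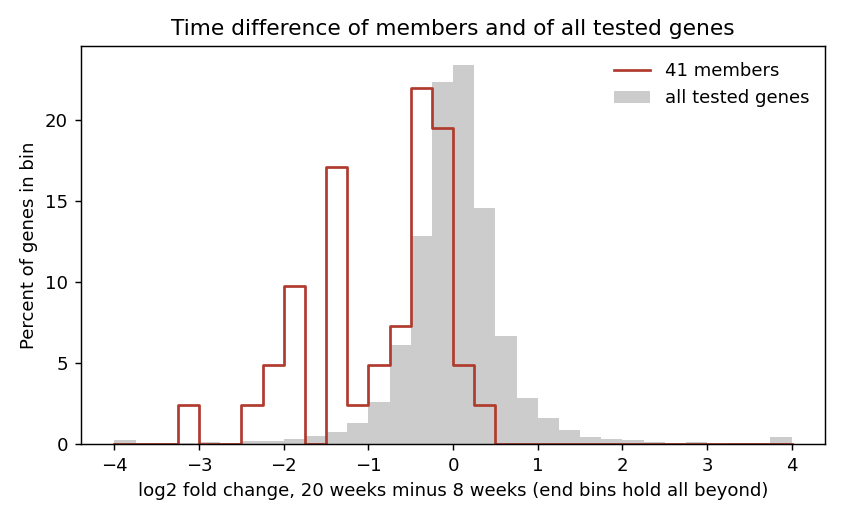
Percent of genes in bins of the log2 fold change between 20 and 8 weeks, averaged over genotypes, for all 14431 tested genes (grey bars) and the 41 members (red line); the end bins hold all values beyond. The members' median was -0.54 and that of all tested genes 0.02.

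The number of calls depended on single libraries. Leaving out knockout-labelled replicate 1, 2 or 3 of 20 weeks gave 6, 6 and 4, where 0.532%, 0.35% and 0.344% of all tested genes fell. Without WT replicate 1, 2 or 3 of 20 weeks it was 5, 7 and 9, where 0.527%, 0.54% and 0.712% of all genes did. It was 5 when WT replicate 1 of 8 weeks was left out (0.484% of all genes) and 6 when knockout-labelled replicate 2 of 8 weeks was (0.542%). Without any of the other 4 libraries it lay between 13 and 19, with 1.56% to 3.66% of all genes. The count over all genes thus went down and up with that of the members. With the thread number as a covariate 3 members fell (Oasl1, Rtp4 and Xaf1), where 0.36% of all genes did, and without the 2 libraries that stood apart 21 fell, where 3.85% of all genes did. With the replicate number as a block 13 fell, where 1.51% of all genes did. Oasl1, Rtp4 and Xaf1 were called under all 21 alternatives that were run, Dhx58 under 20 and Oas1a under 18, while Zbp1 was called under 9 and the other 9 members under 11 to 15.

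Regulators of transcription were mixed. Irf7, the factor that amplifies type I interferon production and is itself interferon-induced (chr7:141262706-141266481, GRCm38), was at 236, 210 and 88.3 CPM in WT and 251, 207 and 78.7 CPM in knockout-labelled cells at 8 weeks. At 20 weeks it was at 66.7, 68.5 and 66.1 CPM in WT and 62.9, 75.5 and 75.1 CPM in knockout-labelled cells. The times did not overlap, but replicate 3 of both 8-week groups came close to the later level. Irf7 fell 2.58-fold (log2 fold change -1.37, SE 0.28, adjusted p = 0.0289). Irf9, the DNA-binding subunit of ISGF3, was at 103 to 155 CPM (median 127) at 8 weeks and 84.4 to 99.5 CPM (median 94.7) at 20 weeks. The times did not overlap, yet the difference of -0.44 was not called (SE 0.12, adjusted p = 0.0807). Stat2, the ISGF3 subunit that carries its activation domain, had a difference of -0.11 (SE 0.16, adjusted p = 0.768) with overlapping libraries. Sp100, a nuclear body protein, had the highest level per transcript length of all members, with a mean of 419 TPM (transcript abundance corrected for length and depth), and a difference of -0.13 (SE 0.14, adjusted p = 0.672).

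Of the 5 RNA sensors, 2 fell. Dhx58, which encodes LGP2, a RIG-I-like receptor without a signalling domain, was at 29.6 to 74.1 CPM (median 66.7) at 8 weeks and 20.0 to 28.1 CPM (median 22.8) at 20 weeks. It fell 2.47-fold without overlap between the times (log2 fold change -1.30, SE 0.22, adjusted p = 0.0119). Zbp1, a sensor of Z-form nucleic acid that can start necroptosis, was at 39.6 to 72.4 CPM (median 50.9) and then 23.6 to 37.1 CPM (median 28.3). It fell 1.75-fold, also without overlap (-0.81, SE 0.18, adjusted p = 0.0393), and it kept its call under the fewest alternatives of the 15. The signalling receptors themselves were not called: Ddx58, which encodes RIG-I, differed by -0.27 (adjusted p = 0.325) and Ifih1, which encodes MDA5, by -0.34 (adjusted p = 0.544). Eif2ak2, the kinase PKR that halts translation on double-stranded RNA, differed by -0.26 (adjusted p = 0.303).

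Of the 7 genes of the ISG15 system and of the ubiquitin and ADP-ribose enzymes, the modifier and its protease fell. Isg15, the ubiquitin-like modifier, was at 39.3, 25.3 and 17.8 CPM in WT and 54.9, 34.5 and 7.81 CPM in knockout-labelled cells at 8 weeks. The 20-week libraries were at 7.25, 7.52 and 7.97 CPM in WT and 8.81, 10.02 and 9.45 CPM in knockout-labelled cells. Of the 8-week libraries, knockout-labelled replicate 3 alone reached down into the 20-week range. Isg15 fell 3.54-fold (log2 fold change -1.82, SE 0.36, adjusted p = 0.0256). Usp18, which removes ISG15 and also blocks signalling at Ifnar2, was at 175, 138 and 82.5 CPM in WT and 202, 164 and 85.9 CPM in knockout-labelled cells at 8 weeks. The later libraries were at 30.8, 60.6 and 53.7 CPM in WT and 39.9, 68.3 and 64.5 CPM in knockout-labelled cells. The times did not overlap, and the later libraries of equal number ranked alike in both genotypes, with replicate 1 lowest. Usp18 fell 2.67-fold (-1.42, SE 0.27, adjusted p = 0.0206). The ligases Herc6, Trim25 and Dtx3l and the ADP-ribosyltransferases Parp9 and Parp14 differed by -0.57 (Herc6) to -0.07 (Parp14), with adjusted p of 0.0992 to 0.816. Parp9 and Dtx3l overlap on opposite strands of chromosome 16, and the strand of the libraries is not given, so reads of the overlap cannot be told apart.

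**Figure D3:**
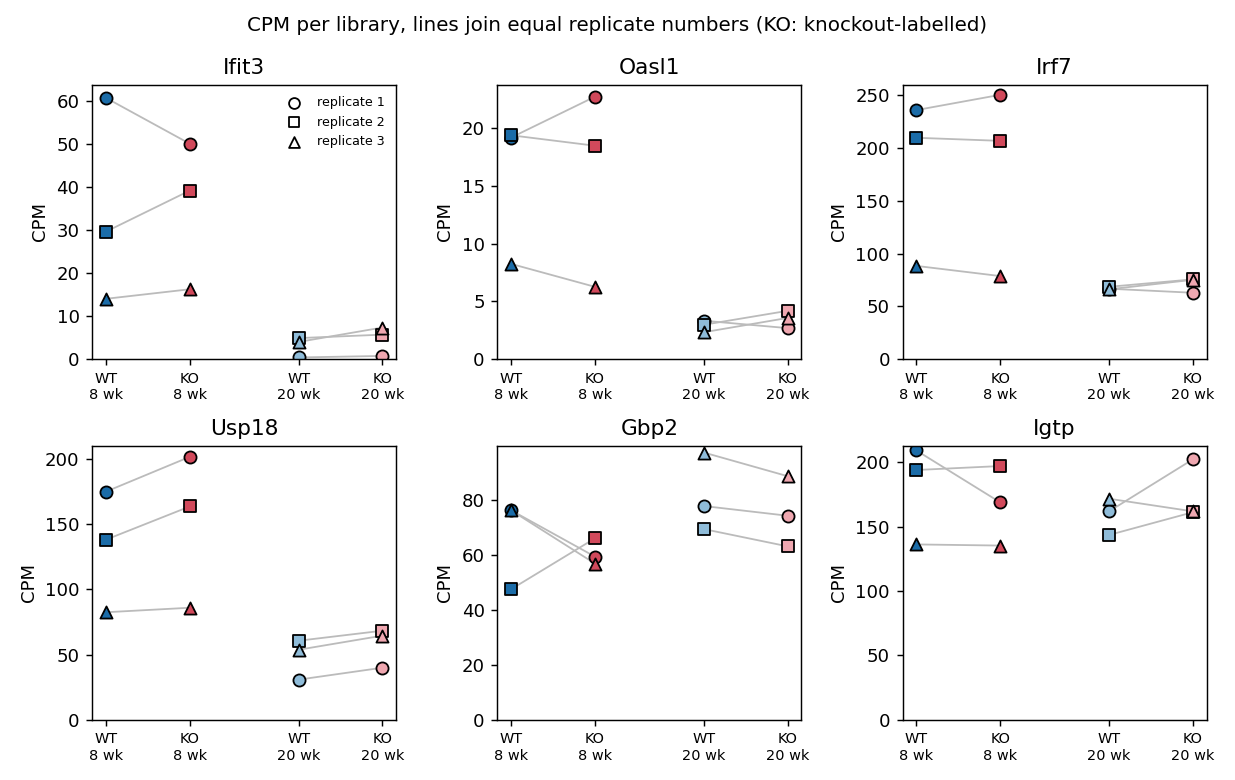
CPM of 6 members in each library, with lines joining WT and knockout-labelled libraries of equal replicate number at the same time. Ifit3, Oasl1, Irf7 and Usp18 are lower in every 20-week library than in every 8-week library, whereas Gbp2 (47.5 to 97.3 CPM) and Igtp (135 to 209 CPM) overlap between the times.

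The OAS genes encode synthetases of 2′-5′ oligoadenylate, the messenger that activates RNase L, or relatives without that activity. Oasl1, a relative that represses translation of Irf7, was at 19.2, 19.4 and 8.24 CPM in WT and 22.7, 18.5 and 6.26 CPM in knockout-labelled cells at 8 weeks. In the later libraries it was at 3.32, 2.97 and 2.32 CPM in WT and 2.68, 4.18 and 3.56 CPM in knockout-labelled cells. There was no overlap, and the 4.96-fold fall had the lowest adjusted p of all members (log2 fold change -2.31, SE 0.33, adjusted p = 0.0054). Oas1a fell 2.41-fold, from 35.1 to 83.7 CPM (median 62.7) to 21.9 to 26.2 CPM (median 24.7), without overlap (-1.27, SE 0.22, adjusted p = 0.0158). Only 23.8% of the 20-base words of Oas1a are in no other gene, and 75.99% are shared with Oas1g, so the estimate may be divided between the 2 genes. Oasl2, Oas2 and Oas3 were not called. Oasl2 and Oas2 had differences of -2.02 (SE 0.56, adjusted p = 0.0764) and -1.96 (SE 0.70, adjusted p = 0.156) at the lowest levels of the set, with mean TPM of 1.87 and 0.438. Oas3 differed by -0.78 (SE 0.23, adjusted p = 0.0897).

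IFIT proteins bind RNA with foreign ends and stop its translation. Ifit3 had the largest fold change of all members. It was at 60.7, 29.6 and 14.0 CPM in WT and 50.01, 39.1 and 16.2 CPM in knockout-labelled cells at 8 weeks. The 20-week values were 0.365, 4.86 and 3.97 CPM in WT and 0.723, 5.67 and 7.32 CPM in knockout-labelled cells. Replicate 1 was the highest of its group at 8 weeks in both genotypes and the lowest of its group at 20 weeks in both. The 9.45-fold fall (log2 fold change -3.24, SE 0.66, adjusted p = 0.0262) was measured on a gene that shares 69.8% of its 20-base words with Ifit3b, a near copy. Ifit3b was itself called lower (log2 fold change -3.19, adjusted p = 0.0341). Ifit1 was at 26.5 to 85.4 CPM (median 55.3) and then 5.70 to 25.4 CPM (median 14.2), a 4.02-fold fall without overlap (-2.01, SE 0.39, adjusted p = 0.0228). Ifit2 was at 5.37 to 14.3 CPM at 8 weeks and 5.34 to 9.95 CPM at 20 weeks, which overlapped, and was not called (-0.43, SE 0.25, adjusted p = 0.379).

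Of the 5 genes of interferon-induced GTPases, Mx1, of the dynamin-like kind, was the one that fell. It was at 20.9, 12.7 and 13.8 CPM in WT and 24.4, 14.5 and 7.93 CPM in knockout-labelled cells at 8 weeks. At 20 weeks it was at 2.72, 4.84 and 4.26 CPM in WT and 8.95, 8.82 and 8.08 CPM in knockout-labelled cells. The WT libraries of 20 weeks were the lowest, and the lowest 8-week library, knockout-labelled replicate 3, lay below all 3 knockout-labelled libraries of 20 weeks. Averaged over genotypes Mx1 fell 2.71-fold (log2 fold change -1.44, SE 0.27, adjusted p = 0.0202). The guanylate-binding proteins Gbp2 and Gbp3 and the immunity-related GTPases Igtp and Irgm1, which act on the vacuoles of intracellular pathogens, had log2 fold changes of 0.30 (SE 0.15), 0.11 (SE 0.21), -0.05 (SE 0.15) and -0.03 (SE 0.18), with adjusted p of 0.326 to 0.958. Their 95% intervals were -0.04 to 0.64 for Gbp2, -0.35 to 0.57 for Gbp3, -0.37 to 0.26 for Igtp and -0.42 to 0.36 for Irgm1. For Gbp3, Igtp and Irgm1 the sign changed under some of the alternatives, and for Gbp2 it stayed positive in all 21, with 0.18 to 0.35.

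Among the remaining antiviral effectors, Rsad2 and Isg20 fell. Rsad2, which encodes viperin, an enzyme that makes a chain-terminating nucleotide, was at 8.56 to 18.8 CPM (median 12.7) at 8 weeks and 2.66 to 9.19 CPM (median 4.09) at 20 weeks. The times overlapped through knockout-labelled replicate 2 of 20 weeks, and the fall was 2.80-fold (log2 fold change -1.48, SE 0.30, adjusted p = 0.0256). Its neighbour on chromosome 12, the nucleotide kinase gene Cmpk2, was at 8.48 to 12.7 CPM and then 5.54 to 10.97 CPM and was not called (-0.34, SE 0.20, adjusted p = 0.397). Isg20, an RNA exonuclease, fell 2.55-fold, from 22.2 to 73.6 CPM (median 54.3) to 16.2 to 22.2 CPM (median 18.4) (-1.35, SE 0.28, adjusted p = 0.0286). Its times met at the edge, since replicate 3 of both 8-week groups was near 20-week values. Bst2, the tetherin that holds virions at the cell surface, ranged from 26.8 to 134 CPM among the 8-week libraries and from 28.6 to 45.8 CPM at 20 weeks, and its difference of -0.74 was not called (SE 0.32, adjusted p = 0.232). Samd9l and Trim30a differed by 0.12 (adjusted p = 0.809) and -0.17 (adjusted p = 0.702). The Schlafen genes Slfn5 and Slfn8, which regulate lymphocyte growth and viral translation, differed by -0.19 (adjusted p = 0.747) and -0.03 (adjusted p = 0.941).

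The other 3 that fell were Rtp4, Xaf1 and Ifi44. Rtp4, a receptor chaperone that also binds viral RNA, was at 39.8 to 134 CPM (median 83.1) at 8 weeks and 14.9 to 29.0 CPM (median 23.1) at 20 weeks, a 3.81-fold fall without overlap (log2 fold change -1.93, SE 0.30, adjusted p = 0.00864). Xaf1, an antagonist of the apoptosis inhibitor XIAP, was at 87.1 to 143 CPM (median 126) and then 47.2 to 67.2 CPM (median 58.0), a 2.04-fold fall without overlap (-1.03, SE 0.17, adjusted p = 0.0103). Xaf1 was also among the 5 members of highest level, at a mean of 138 TPM, and had the smallest SE of the members that fell. Ifi44, a cytoplasmic interferon-induced protein, fell 3.42-fold (-1.78, SE 0.39, adjusted p = 0.0372). Its 8-week libraries spread from 6.33 to 26.7 CPM and WT replicate 1 of 20 weeks, at 7.02 CPM, overlapped them. Ifi35 was at 122 to 216 CPM and then 104 to 137 CPM, and its difference of -0.54 was not called (SE 0.16, adjusted p = 0.0992).

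**Figure D4:**
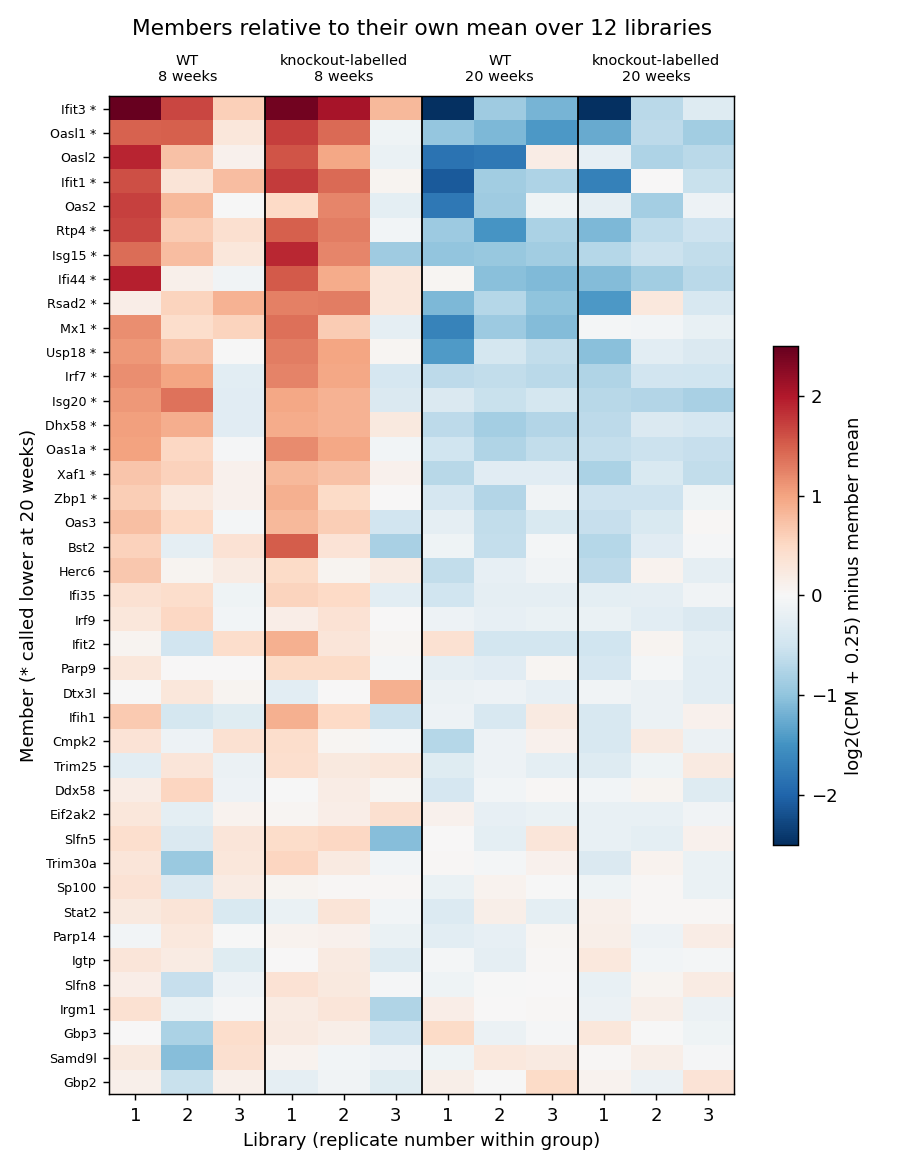
Each member (row, sorted by the time difference, largest fall at the top) in each library (column), as log2(CPM + 0.25) minus the member's mean over the 12 libraries; red is above and blue below that mean, and a star marks the 15 members called lower at 20 weeks. The upper rows are red at 8 weeks, paler in replicate 3 of both genotypes, and blue at 20 weeks, and the lowest rows, with Gbp2, Samd9l and Gbp3, show no such change.

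The 8-week libraries differed more among themselves than the later ones. Among the 15 members that fell, replicate 1 was the highest of its group in 12 for WT and in 14 for knockout-labelled cells, and replicate 3 was the lowest in 12 for WT and in 15 for knockout-labelled cells. The mean log2 CPM of these 15 was 4.57 to 5.98 over the 8-week libraries and 3.45 to 4.15 over the 20-week ones. These 15 were picked by their fall in the same libraries, so the gap between the times follows from that choice and is no further support. Of the 26 members that were not called, replicate 3 was lowest in 20 in knockout-labelled cells, but in WT replicate 2 was lowest in 15 and replicate 3 in 8. At 20 weeks knockout-labelled replicate 1 was the lowest of its group in 12 of 15. The summed level of 7 markers of NK cells and ILC1s was 234 CPM in WT replicate 3 and 228 CPM in knockout-labelled replicate 3 of 8 weeks, against 58.2 to 87.4 CPM in the other 4 libraries of 8 weeks and 35.3 to 69.8 CPM at 20 weeks. Gzma, at 32.4 to 226 CPM, made up most of that sum, while Eomes did not exceed 0.326 CPM, Ncr1 1.21 CPM and Tbx21 1.85 CPM. The part of these cells in the order of the libraries was not tested.

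Markers of other cells that make or answer interferon were compared beside the time difference. The 8 markers of plasmacytoid dendritic cells summed to 62.6 to 95.8 CPM at 8 weeks and 83.2 to 103 CPM at 20 weeks, with Siglech at 0.532 to 1.83 CPM and Klk1 at 0 in all libraries. The 11 markers of dendritic cells and macrophages summed to 20.7 to 32.5 CPM and 17.0 to 27.6 CPM, with Clec9a and Fcgr1 at 0. The 6 neutrophil markers summed to at most 0.268 CPM. B cell markers summed to 122 to 412 CPM at 8 weeks and 101 to 155 CPM at 20 weeks, T cell markers to 613 to 1191 CPM and 732 to 1073 CPM, stromal and endothelial markers to 118 to 160 CPM and 124 to 163 CPM, and ILC2 markers to 5447 to 7542 CPM and 6963 to 8355 CPM. Of these lists the B cell sum moved down with the members, through its highest libraries. So did the NK cell and ILC1 sum given above, from 58.2 to 234 CPM at 8 weeks to 35.3 to 69.8 CPM at 20 weeks. The part of these 2 lists in the fall of the members was not tested. Of the single markers 4 were called between the times: Cd79b of B cells (log2 fold change -0.77, adjusted p = 0.0240), and the ILC2 effector genes Il13 (-0.98, adjusted p = 0.0439) and Areg (-1.57, adjusted p = 0.0163), fell, and Ccr9 of the plasmacytoid list rose (0.84, adjusted p = 0.0388).

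Time was also compared within each genotype, on the same libraries and with 3 against 3. In WT, 2 of 41 members fell, where 0.312% of all tested genes did: Oasl1 by 2.43 (log2 fold change -2.43, SE 0.47, adjusted p = 0.0447) and Mx1 by 2.01 (-2.01, SE 0.39, adjusted p = 0.0448). At an unadjusted p under 0.05, 21 members were lower, as were 7.29% of all genes. DESeq2 called 13 (2.38% of all genes) and limma-voom 0 (0.291%). The count was 9 without WT replicate 3 of 8 weeks (1.22% of all genes), 6 without knockout-labelled replicate 3 of 8 weeks (0.548%) and 2 when knockout-labelled replicate 1 of 8 weeks was left out (0.297%), while leaving out any other single library gave 0 (0.115% to 0.238%). Leaving out the pair of libraries that stood apart gave 4 (0.634%). As stated for Ddx3y (log2 fold change 6.80 in this contrast), the WT libraries of the 2 times differ in Y-linked transcripts, and the part of that difference cannot be told apart from time. In knockout-labelled cells edgeR called 0 members, where 0.0624% of all tested genes fell. There 20 members were lower at an unadjusted p under 0.05, as were 5.18% of all genes, and DESeq2 called 9 (0.819% of all genes) and limma-voom 0 (0.0624%). When the pair of libraries that stood apart was left out edgeR called 5 (0.313% of all genes), and 4 when knockout-labelled replicate 3 of 8 weeks alone was (0.159%).

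The estimates of the 2 genotypes were alike in sign and close in size for most of the members that fell. Ifit3 differed between the times by -3.53 (SE 0.95) in WT and -2.95 (SE 0.91) in knockout-labelled cells, Irf7 by -1.41 (SE 0.40) and -1.33 (SE 0.40), Isg15 by -1.86 (SE 0.52) and -1.79 (SE 0.51), and Usp18 by -1.45 (SE 0.38) and -1.39 (SE 0.38). Mx1 was the member with the lowest p of the test of the difference itself, with -2.01 (SE 0.39) in WT and -0.86 (SE 0.37) in knockout-labelled cells. The genotype by time interaction called 0 of 41 members with edgeR, DESeq2 or limma-voom, where these tools called 0.097%, 0.243% and 0.0762% of all tested genes. With edgeR 0 were under an unadjusted p of 0.05, against 2.18% of all genes (Mx1 1.15, SE 0.53, unadjusted p = 0.0505). Without the pair of libraries that stood apart the median over members was -0.18 in place of 0.02.

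The second comparison, for which the chimeras were made, set knockout-labelled against WT cells that had developed in the same kind of host. No member was called in it. Averaged over both times, edgeR, DESeq2 and limma-voom each called 0 of 41 members, where they called 0.222%, 0.528% and 0.215% of all tested genes. With edgeR 0 members were under an unadjusted p of 0.05, against 3.71% of all genes. The log2 fold changes of knockout-labelled minus WT ran from -0.29 (Isg20, SE 0.27) to 0.56 (Mx1, SE 0.26), with a median of 0.07. That median rested on single libraries: leaving out knockout-labelled replicate 1 of 8 weeks gave -0.03, with 22 of 41 members negative, leaving out WT replicate 1 of 8 weeks gave 0.15, and leaving out knockout-labelled replicate 3 of 8 weeks gave 0.20, with 9 negative. Below an unadjusted p of 0.05 were 3 members without that last library and 4, all higher, without the pair of libraries that stood apart. In the fit without the pair the median was 0.18, and in both refits still 0 were called. The share of all tested genes under that unadjusted threshold is not given for these refits, so the 3 and 4 members cannot be judged against it. For 34 of 41 members the 95% interval lay within 1 log2 unit of no difference. The other 7 were Mx1, Oasl2, Oas2, Ifit1, Ifit3, Isg15 and Rsad2. For genotype at 8 weeks, which compares libraries all low in Y-linked transcripts, this held for 30 of 41 members. For genotype at 20 weeks it held for 28 of 41. Averaged over both times, the interval was -0.56 to 0.65 for Irf7, -0.49 to 1.05 for Isg15, -0.35 to 0.79 for Usp18, -0.39 to 0.32 for Xaf1 and -0.35 to 0.24 for Sp100. It was wider for the low and scattered members, at -1.03 to 1.63 for Ifit3, and it ran from -0.41 to 1.21 for Ifit1 and -0.10 to 1.17 for Rsad2.

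**Figure D5:**
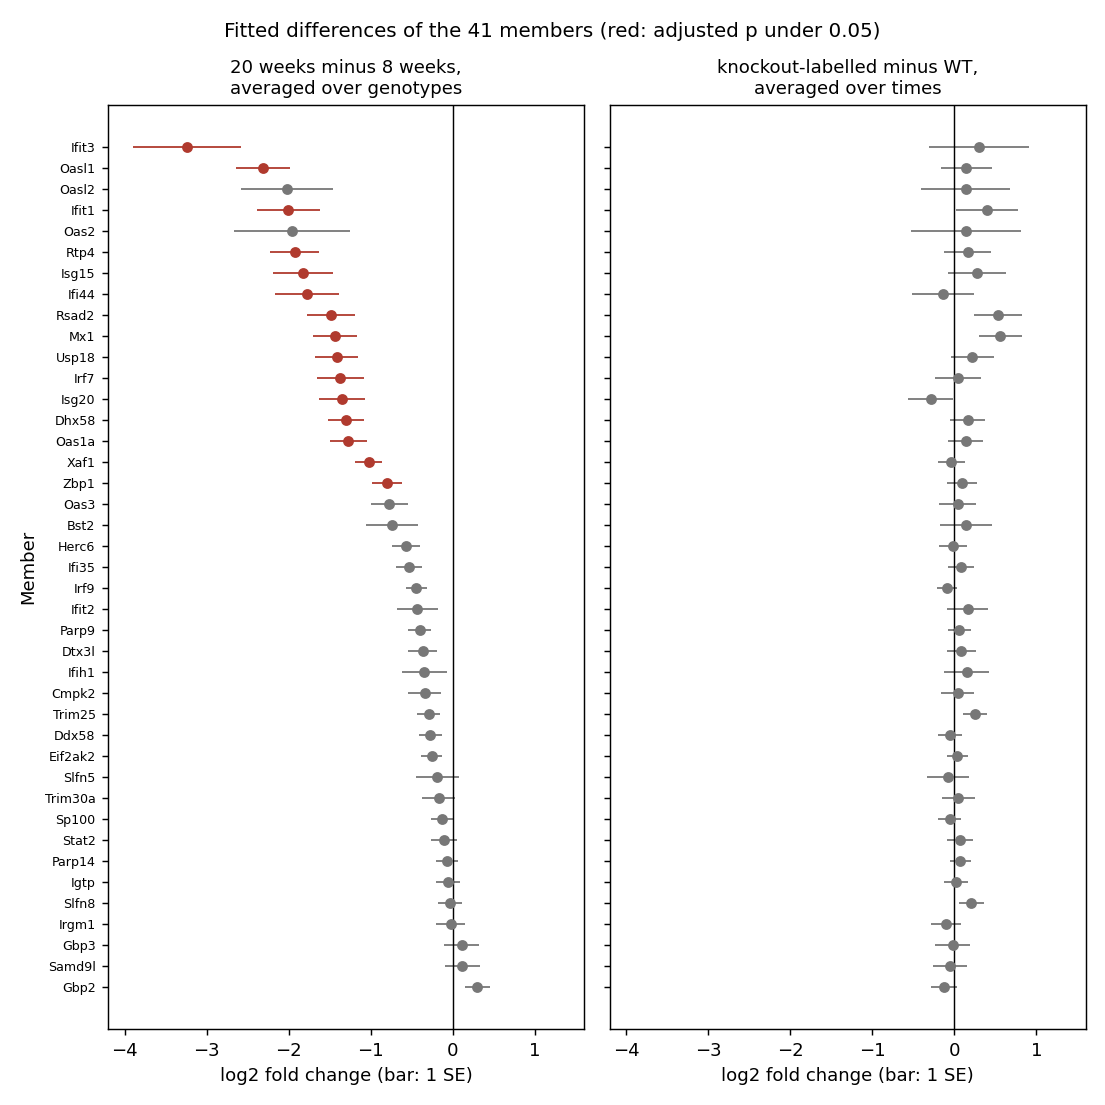
Log2 fold change of each member (point) with 1 SE (bar) between the times, averaged over genotypes (left), and between the genotypes, averaged over times (right), on the same axis; red marks an adjusted p under 0.05. The time differences reach -3.24 for Ifit3, while the genotype differences lie between -0.29 and 0.56 and none is red.

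At 8 weeks edgeR, DESeq2 and limma-voom each called 0 of 41 members, where they called 0.201%, 0.521% and 0.187% of all tested genes. With edgeR 0 were under an unadjusted p of 0.05, against 3.62% of all genes. The 5 members with the largest differences were Oas2 (-0.48, SE 0.94), Rsad2 (0.47, SE 0.41), Ifit2 (0.41, SE 0.35), Bst2 (0.37, SE 0.45) and Ifih1 (0.35, SE 0.39). Bst2 rested on 1 library, since knockout-labelled replicate 1 was at 134 CPM and the other 5 libraries at 26.8 to 70.5 CPM, and without it the difference was -0.40. The median over members at 8 weeks was 0.03, and 0.22 without the pair of libraries that stood apart. Without WT replicate 1, which held the highest value of Oas2, its difference was 0.19.

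At 20 weeks edgeR, DESeq2 and limma-voom each called 0 of 41 members, where they called 0.0554%, 0.222% and 0.0485% of all tested genes. With edgeR Mx1 was the 1 member under an unadjusted p of 0.05, where 2.08% of all genes were. Its 3 knockout-labelled libraries, at 8.08 to 8.95 CPM, lay above its 3 WT libraries, at 2.72 to 4.84 CPM, with a log2 fold change of 1.14 (SE 0.38, unadjusted p = 0.0111, adjusted p = 1.00). At 8 weeks Mx1 had overlapped between the genotypes, with a difference of -0.01 (SE 0.37). Since Ddx3y was at 101 to 113 CPM in these WT libraries and 1.12 to 1.90 CPM in the knockout-labelled ones, genotype at 20 weeks cannot be told apart from the Y-linked difference. Of the 20-base words of Mx1, 87.7% are in no other gene and 11.3% are shared with Mx2. The next largest differences at 20 weeks were those of Oas2 (0.77, SE 1.02), Rsad2 (0.60, SE 0.42), Ifit3 (0.59, SE 0.89) and Ifit1 (0.56, SE 0.53).

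The rest of the pathway was read from lists of genes outside the set, whose counts stand against 1.93% of all tested genes that fell and 0.977% that rose with time. Of 10 interferon genes 0 could be tested: Ifnb1, Ifna1, Ifna2, Ifna4, Ifna5, Ifne, Ifnl2 and Ifnl3 were at 0 reads in all 12 libraries, where a count of 0 allows up to 3 counts, or 0.0864 to 0.296 CPM. Ifnk reached at most 7.16 and Ifng at most 18.3 estimated reads. Of 8 tested receptor and kinase genes edgeR called 0 between the times, with 1 under an unadjusted p of 0.05. That was Ifnar2, the signalling chain of the type I receptor, at 6.42 to 7.83 CPM at 8 weeks and 7.73 to 13.7 CPM at 20 weeks (log2 fold change 0.67, SE 0.17, adjusted p = 0.0580). Ifnar1 and Ifngr1 differed by -0.09 (SE 0.10) and -0.05 (SE 0.15).

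Of 8 tested STAT and IRF genes outside the set edgeR called 0 between the times, with 0 under an unadjusted p of 0.05. Irf1, a transcription factor induced by interferon gamma, differed by 0.36 (SE 0.18, adjusted p = 0.318). Of 8 tested brakes on the pathway 0 were called and 1 was under an unadjusted p of 0.05, the DNA exonuclease gene Trex1 (-0.75, SE 0.18, adjusted p = 0.0504). Of 13 tested sensors and adaptors 1 rose and 0 fell. The riser was Aim2, the DNA sensor of the inflammasome, at 9.51 to 25.9 CPM at 8 weeks and 28.5 to 40.6 CPM at 20 weeks (0.89, SE 0.19, adjusted p = 0.0351). Adar of the same list went the other way and was just short of a call (-0.54, SE 0.13, adjusted p = 0.0501). It was at 79.1 to 121 CPM at 8 weeks and 59.3 to 75.9 CPM at 20 weeks.

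Among 46 tested genes of a further list of interferon-stimulated genes, 4 fell and 0 rose between the times, with a median log2 fold change of -0.20. Besides Ifit3b, these were Ifi27l2a, a mitochondrial or nuclear envelope protein of the ISG12 family (-2.09, SE 0.34, adjusted p = 0.0110), Phf11d (-0.84, SE 0.19, adjusted p = 0.0379) and the helicase gene Helz2 (-0.59, SE 0.14, adjusted p = 0.0497). Ifi27l2a was at 33.4 to 151 CPM at 8 weeks and 15.9 to 33.0 CPM at 20 weeks, without overlap. In none of these lists was a gene called between the genotypes at 8 weeks, at 20 weeks or averaged over times, with edgeR.

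Levels per transcript length did not order the members by whether they fell. The 5 highest by mean TPM were Sp100 (419), Ifi35 (152), Xaf1 (138), Igtp (111) and Irf7 (107), of which Xaf1 and Irf7 fell, and the lowest were Ifit2 (2.97), Oasl2 (1.87) and Oas2 (0.438), of which none was called. The genes outside the set whose log2 CPM followed the score most closely over the 12 libraries were Ifi208 (Pearson r = 0.96), Gins2 (0.96), Rnaseh2a (0.95), Car9 (0.95) and Selenow (0.94). Within the 6 libraries of 8 weeks these were 0.97, 0.89, 0.94, 0.91 and 0.90, and within the 6 of 20 weeks 0.61, 0.85, 0.54, 0.47 and 0.47. Libraries share their group and depth, and no p is given.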

How the data were processed

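Estimated read counts (expected counts) and TPM per transcript were made by the authors with sailfish 0.6.3 from 20-base words and Ensembl release 76, per the file headers. Sailfish is absent from the submitters' processing notes, which name STAR 2.0.4b and featureCounts 1.4.5 among other tools. Of 86127 transcripts, 83739 (97.2%) had a gene in GENCODE M21 (GRCm38), which gave gene sums for 29542 genes. Transcripts without a gene (2388) were not used. Sums were rounded, filtered with filterByExpr (14431 genes), scaled by TMM and fitted with the quasi-likelihood model of edgeR 4.0.16 on 4 group means (R 4.3.3), in 7 contrasts of genotype and time with Benjamini-Hochberg adjustment over all tested genes at 0.05. The common biological coefficient of variation was 0.377. Contrasts share libraries, so their values are not independent. The score is the mean log2 CPM with a prior count of 2. Intervals at 95% use the t quantile at the degrees of freedom of the edgeR test (median 12.2). Floors cover counting error only. The authors' deposited TPM values were used for levels per length and, scaled by length, as an alternative. DESeq2 1.42.0, limma 3.58.1 (voom), other scalings and filters, a replicate block, thread number and libraries left out were the other alternatives, and the tests were checked on simulated data.

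The members and all gene lists were chosen with earlier results of these data known. All members could be named; full statistics went to members called in any contrast, the 5 highest by TPM, the 5 with the largest differences in 4 contrasts and 11 set genes, and, outside the set, to Irf1, the receptors, called pathway genes, Rag1, Thy1 and the 5 genes most like the score. The Y-linked genes, the single called markers, Trex1 and Adar were added after their values were seen. Gbp6 of the further list was not matched. Deviations of WT and knockout-labelled libraries of equal number correlated over all tested genes by 0.23, 0.16 and 0.11 at 8 weeks. At 20 weeks they correlated by 0.07, 0.07 and 0.12. Those of unequal number correlated by -0.18 to 0.04 at 8 weeks and -0.11 to 0.05 at 20 weeks. Libraries of equal number but different times, which cannot share a host, correlated by -0.11 to 0.20. Over the 41 members alone, equal numbers correlated by 0.52, 0.29 and 0.45 at 8 weeks and 0.46, 0.53 and 0.34 at 20 weeks. Unequal numbers correlated over members by -0.56 to 0.35 at 8 weeks and -0.64 to 0.46 at 20 weeks, and equal numbers of different times by -0.34 to 0.20. The labels state no pairing, and these values do not settle whether the numbers pair the libraries. One gene of the naming rule is not reported here.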

Additional observations from a re-analysis of the deposited data

How the results depend on the processing

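Of the results with a count, 0 members were called for genotype at either time, averaged, and for the interaction under every alternative run. In the reported fit 0.0554% to 0.222% of all tested genes were called in these contrasts. The replicate block left 13 members lower for time averaged over genotypes (1.51% of all tested genes) and 1 for time in WT (0.215%), and changed no genotype count. For time averaged over genotypes (15 in the reported fit) the count was 3 with the thread number as a covariate (0.36% of all tested genes). With 1 library left out the count was 4 to 19 (0.344% to 3.66%). For time in WT (2 in the reported fit) it was 13 with DESeq2 (2.38% of all tested genes), 0 with limma-voom (0.291%) and 1 with length-scaled TPM (0.29%). It was 1 with the replicate block (0.215%), 0 with the thread number (0.243%) and 0 on the compared libraries alone (0.149%). Without the 2 libraries that stood apart it was 4 (0.634%), and with 1 library left out 0 to 9 (0.115% to 1.22%). For time in knockout-labelled cells (0 in the reported fit) it was 9 with DESeq2 (0.819% of all tested genes). It was 5 without the 2 libraries that stood apart (0.313%) and 0 to 4 with 1 left out (0% to 0.159%). On log2(TPM + 1) the score differed between the times by -0.46 on average, -0.52 in WT and -0.41 in knockout-labelled cells. Among the members given full statistics, signs turned for the genotype difference of Bst2 at 8 weeks (-0.40 without knockout-labelled replicate 1 to 0.77 without its replicate 3), that of Oas2 (-1.02 without knockout-labelled replicate 2 to 0.19 without WT replicate 1), Igtp between the times (-0.14 without WT replicate 3 to 0.013 without knockout-labelled replicate 2, both of 8 weeks) and Isg20 between the genotypes (0.038 without the 2 libraries that stood apart). The time differences of Parp14 (-0.13 to 0.42), Samd9l (-0.07 to 0.25), Slfn8 (-0.17 to 0.06), Gbp3 (-0.11 to 0.26) and Irgm1 (-0.21 to 0.07), none called in the reported fit, also took both signs. The cause was not tested, except that leaving out libraries leaves fewer samples. Shallow members such as Oas2, with 0 estimated reads in 1 library, set no firm limit. Members without a promoter entry were not searched.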
